A study of Rattus norvegicus with 8 samples.

Results

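Cells positive for Alpl or Ibsp made up 1656 of the 65208 cells with at least 5000 unique molecular identifiers (UMIs, each standing for 1 captured RNA molecule) in 8 single-cell libraries of rat fracture callus, or 2.54%. A cell was counted as positive when it held at least 3 UMIs of Alpl or at least 3 UMIs of Ibsp. These positive cells were set against 50915 negative cells of the same libraries, which held 0 UMIs of both genes. The remaining 12637 cells, with 1 or 2 UMIs of either gene and under 3 of both, belonged to neither set. Alpl, Ibsp and the total UMI count chose the cells, so their values are given as a description without a test.

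Callus forms around a broken bone while it heals, and the study asked about magnesium in the healing of atypical femoral fractures, a kind of break linked to long bisphosphonate use. Sprague Dawley rats had a closed fracture of 1 femur, held by a nail inside the bone, and callus was taken 4 or 12 weeks later. The 4 treatments were control (untreated), zoledronate (a bisphosphonate, injected under the skin at 0.3 mg/kg each week for 12 weeks before the fracture), zoledronate with CGRP (calcitonin gene-related peptide, a neuropeptide), and zoledronate with magnesium, with 1 library for each treatment and week. All 8 libraries came from callus digested with collagenase A and kept in a dish for 24 h, so they hold cells that survived this step. The last pair of treatments are called CGRP and magnesium here. The labels name steel nails and nails that contain magnesium without saying which group had which, and the dose of CGRP and the number of animals per library are likewise not given in the sources used here. With 1 library per treatment and week, treatments and weeks were compared without a test.

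Alpl encodes tissue-nonspecific alkaline phosphatase, a surface enzyme that breaks down pyrophosphate, an inhibitor of mineral growth, and appears early as a mesenchymal cell turns toward bone formation. Ibsp encodes bone sialoprotein, a secreted protein of mineralising matrix that is made by osteoblasts and by hypertrophic chondrocytes. RUNX2 and SP7 are the transcription factors that drive this path, and osteocalcin (Bglap), MEPE and DMP1 belong to its late steps.

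The upstream sequences of the genes that define the positive cells, and of Mmp13, the protease gene with the largest fold change among the gene lists, are shown to give the reader the promoters behind these transcripts. Each runs over the 250 bases before the RefSeq gene start in the GRCr8 assembly, 5′ to 3′ on the gene's strand. Capitals mark a match to the RUNX core TGTGGTT or its reverse complement AACCACA.
Alpl (chr5:155289786-155290035, minus strand): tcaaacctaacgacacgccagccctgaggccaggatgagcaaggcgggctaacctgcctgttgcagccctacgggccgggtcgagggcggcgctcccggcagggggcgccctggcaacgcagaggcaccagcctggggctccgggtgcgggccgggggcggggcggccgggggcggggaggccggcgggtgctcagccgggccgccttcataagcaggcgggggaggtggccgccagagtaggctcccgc
Ibsp (chr14:5757243-5757492, minus strand): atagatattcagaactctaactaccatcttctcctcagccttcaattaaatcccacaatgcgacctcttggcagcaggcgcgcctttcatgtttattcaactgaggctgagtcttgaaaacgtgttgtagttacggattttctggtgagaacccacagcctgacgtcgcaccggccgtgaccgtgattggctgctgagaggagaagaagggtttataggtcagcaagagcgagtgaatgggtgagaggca
Mmp13 (chr8:12782579-12782828, plus strand): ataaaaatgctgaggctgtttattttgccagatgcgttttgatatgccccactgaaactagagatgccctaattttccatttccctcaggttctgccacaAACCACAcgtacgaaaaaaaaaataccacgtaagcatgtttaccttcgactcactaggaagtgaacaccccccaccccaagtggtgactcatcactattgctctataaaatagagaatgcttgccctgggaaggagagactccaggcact
The Mmp13 window held AACCACA starting at position -150 from the gene start, and the windows of Alpl and Ibsp held neither spelling. The motif, searched on both strands, was present in 1537 of 33469 rat promoter windows of the same length (4.59%), so a match is not rare and says nothing on binding. The homeodomain core TAATTA, present in 1626 of those windows (4.86%), was in none of the 3 sequences. Among the 15 genes named below as higher in positive cells, 9 had a promoter in the table, of which 1 held the RUNX core and 0 held TAATTA.

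Positive cells were common in 3 libraries and scarce in the other 5. At week 4 they numbered 456 cells in control, 499 in zoledronate and 491 in magnesium, or 6.70%, 6.52% and 6.76% of the cells with at least 5000 UMIs. The exact binomial (Clopper-Pearson) 95% intervals of these shares were 6.11 to 7.32%, 5.98 to 7.10% and 6.19 to 7.36%, and they overlapped. The CGRP library at week 4 held 53, a share of 0.658% (0.493 to 0.860%), below the intervals of the other week 4 libraries. At week 12 there were 7 in control (a share of 0.0900%, interval 0.0362 to 0.185%), 92 in the zoledronate library (0.992%, 0.80 to 1.21%), 31 with CGRP (0.299%, 0.203 to 0.424%) and 27 with magnesium (0.338%, 0.223 to 0.491%). Each week 12 share was below that of the same treatment at week 4, and the zoledronate share was above the other week 12 shares. Counting error alone enters these intervals, and the spread between animals or dishes does not. Of all positive cells, 1499 came from week 4, and the 3 large libraries gave 1446 (87.3%).

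**Figure D1:**
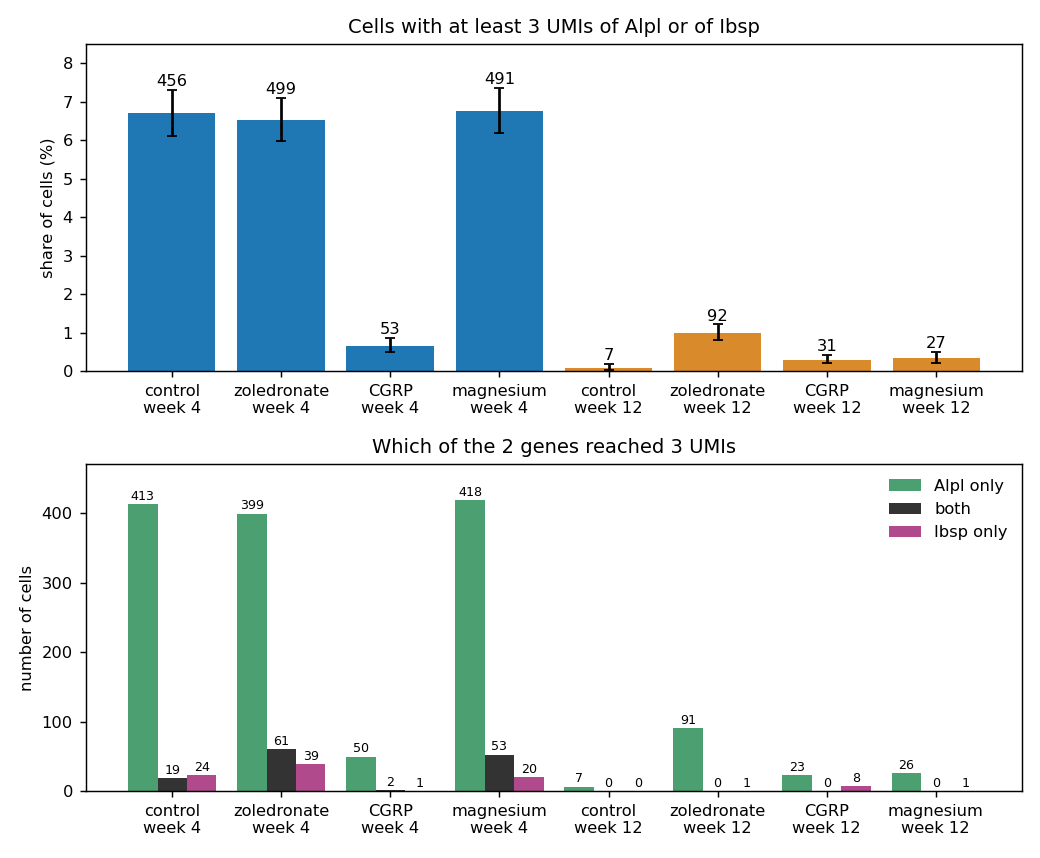
Share of cells with at least 5000 UMIs that were positive for Alpl or Ibsp in each library, with exact 95% binomial intervals, beside the number of positive cells split into Alpl only, both genes and Ibsp only. Control, zoledronate and magnesium at week 4 stand at 6.52 to 6.76%, and the highest upper end of an interval in the other libraries is 1.21%, in zoledronate at week 12.

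Depth and library quality stand beside these shares as follows. The 8 libraries held 141264724 to 160177900 UMIs in all, and the median UMI count was 15422 to 21910 in positive cells and 12520 to 20160.5 in negative cells. Positive cells were the deeper set in 7 libraries and the shallower in control at week 12. Among 4416 barcodes under 5000 UMIs, 12 would have passed the Alpl or Ibsp minimum. Of 69087 distinct barcodes, 535 occurred in more than 1 library, and 0 were positive in 2 libraries. No doublet caller was used, and 30 positive cells held more than 40000 UMIs, so some may be 2 cells.

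The threshold cuts through a continuous range of Alpl. Exactly 3 Alpl UMIs were found in 900 positive cells, just inside the limit, and exactly 2 in 2643 cells, just outside it. At least 5 Alpl UMIs were found in 334 cells, and at least 10 in 39. For Ibsp, 57 cells held exactly 3 UMIs and 113 exactly 2, while 59 held at least 10. The highest counts in a cell at week 4 were 15 to 20 for Alpl and 27 to 69 for Ibsp, and at week 12 they were 4 to 5 and 2 to 6. Any Alpl UMI was found in 36.9 to 39.3% of cells of control, zoledronate and magnesium at week 4, in 14.6% of CGRP at week 4, in 22.0% of zoledronate at week 12 and in 6.92 to 10.0% of the other week 12 libraries. No cell class known to lack Alpl could be set beside these shares, and the part of free RNA in them was not tested.

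Alpl chose most of the positive cells. At least 3 Alpl UMIs were held by 1562 of them and at least 3 Ibsp UMIs by 229, with 135 passing on both genes. These 135 were 59.0% of the Ibsp cells and 8.64% of the Alpl cells. By library, the Ibsp cells numbered 43 in control, 100 in zoledronate, 73 in magnesium and 3 in CGRP at week 4. At week 12 they numbered 8 in CGRP, 1 each in zoledronate and magnesium, and 0 in control, and none of these 10 also held 3 Alpl UMIs.

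Since either gene could choose a cell, each was measured in cells chosen by the other alone. In cells with at least 3 Alpl UMIs, Ibsp stood at 23.6 counts per 1000000 UMIs (CPM) in control, 78.7 in zoledronate, 38.9 in CGRP and 57.6 in magnesium at week 4. In cells with 0 Alpl UMIs of the same libraries it stood at 0.869, 1.32, 0.386 and 0.790 CPM. An Ibsp UMI was found in 9.03, 24.8, 3.85 and 20.6% of the Alpl-chosen cells, against 0.979, 1.93, 0.712 and 1.32% of the cells without Alpl. The CGRP value rests on 2 of 52 Alpl-chosen cells. At week 12 the Alpl-chosen cells held 0 CPM of Ibsp in control, 1.20 in zoledronate, 2.58 in CGRP and 0 in magnesium, against 0.277, 0.285, 0.643 and 0.156 CPM without Alpl. Ibsp was thus higher in the Alpl-chosen cells in 4 of 4 week 4 libraries, and at week 12 the values were near those of a single UMI. Over 8 libraries the mean log2 ratio of CPM plus 1 was 2.50 ± 2.41 (SD, n = 8), with 6 libraries higher.

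**Figure D2:**
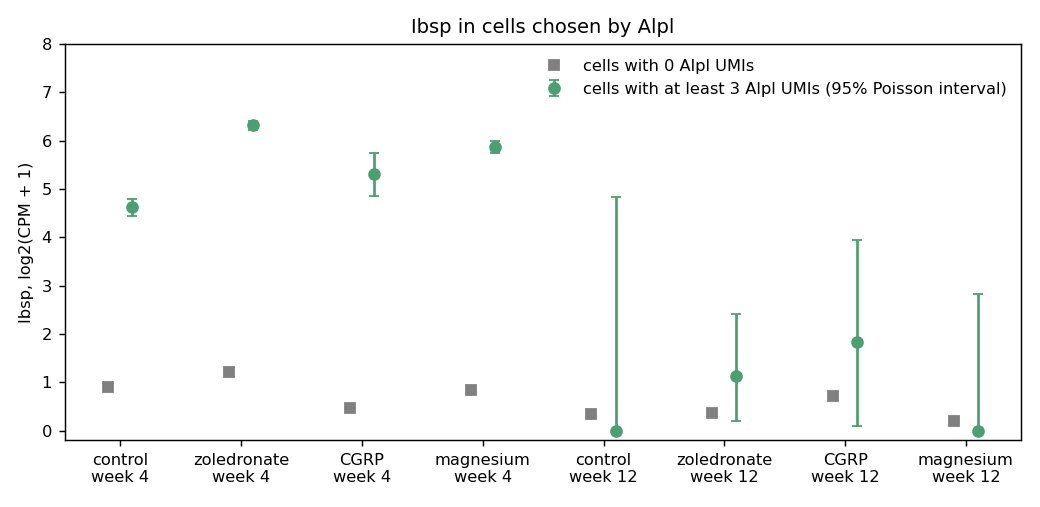
Ibsp, as log2 of CPM plus 1, in cells with at least 3 Alpl UMIs and in cells with 0 Alpl UMIs, with 1 pair of points for each library. The pairs of week 4 lie apart, from 0.386 to 1.32 CPM without Alpl and from 23.6 to 78.7 CPM with it, and the pairs of week 12 lie close together.

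In the reverse direction, Alpl stood at 152, 209, 437 and 306 CPM in the Ibsp-chosen cells of control, zoledronate, CGRP and magnesium at week 4, against 28.7, 27.5, 9.36 and 30.1 CPM in cells with 0 Ibsp UMIs. The CGRP value rests on 3 cells. At week 12 it was 27 against 8.09 CPM in CGRP (8 cells), and 0 in the 1 Ibsp-chosen cell each of zoledronate and magnesium. Alpl was higher in 5 of 7 libraries, with a mean log2 ratio of 1.23 ± 3.44 (SD, n = 7).

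The late markers of bone formation were close to 0 in the positive cells, and so was Sp7, which drives the path with Runx2. Runx2 passed the test on all positive cells but not in every setting, as given below. The label osteogenic therefore rests on Alpl, Ibsp and the other early genes described below. Sp7 had 9 UMIs in all positive cells together, in control, zoledronate and magnesium at week 4. Bglap had 22 UMIs in control, 13 in zoledronate and 7 in magnesium at week 4 and 0 elsewhere, and 19 of the 22 control UMIs lay in 1 cell. Mepe had at most 9 UMIs in a library and Dmp1 had 0 in every library. Phospho1, a phosphatase of matrix vesicles, did not pass the test, with a log2 fold change of 0.41 against negative cells. Transcripts of Ifitm5, Sost, Fgf23, Tnfsf11 and Col10a1 were not listed, so they were not analysed here.

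Markers of other cell types are given here as the summed level of each list, with its range over the 8 libraries. Of 14 macrophage genes 9 were listed, and their summed level was 0 to 19.6 CPM over the libraries in positive cells against 12.2 to 26.6 CPM in negative cells, with Cd14 making up 89.1% of it. The endothelial list, 8 of 11 listed, summed to 18.4 to 47.1 CPM, of which Eng was 90.2%, against 12.6 to 52.0 CPM in negative cells. The osteoclast list summed to 44.9 to 249 CPM, of which Ctsk, also made by fibroblasts, was 88.4%, against 62.9 to 166 CPM in negative cells. Schwann and nerve genes, 8 of 9 listed, summed to 367 to 644 CPM against 329 to 523 CPM, and Pmp22, also made by fibroblasts, was 79.4%. Skeletal muscle genes, 5 of 10 listed, summed to 25.2 to 397 CPM against 31.4 to 176 CPM, with Acta1 making up 95.9%, and the pericyte list, 7 of 9 listed, to 22.5 to 142 CPM against 37.6 to 131 CPM, with Ndufa4l2 making up 49.0%. The T, B and NK cell genes, 3 of 12 listed, summed to 0 to 9.80 CPM against 0.22 to 2.39 CPM, nearly all of it Cd2 (98.2%). The neutrophil and mast cell list held 0 to 2.00 CPM against 0 to 0.293 CPM, all Camp, and the erythroid list 0 to 7.49 CPM against 0.265 to 0.922 CPM, all Ahsp. The adipocyte list, 8 of 10 listed, summed to 7.13 to 25.8 CPM against 4.73 to 33.8 CPM. The maximum was higher in positive than in negative cells in all of these lists but the macrophage, endothelial and adipocyte ones. The sums of positive cells cover as few as 7 cells, and those of negative cells far more. A single UMI made 7.49 CPM in positive cells of control at week 12 and 2.00 CPM in CGRP at week 12. These are the erythroid and the neutrophil and mast cell maxima, so in these lists a higher maximum does not show more of such cells. In the test described below, 2 of 4 pericyte, 2 of 4 Schwann and nerve and 1 of 3 osteoclast genes were higher. So were 1 of 4 skeletal muscle, 1 of 2 endothelial and 1 of 5 adipocyte genes, with 0 lower in each of these lists. Over all genes tested 12.1% were higher. Of 3 macrophage genes tested 0 were called. The part of cells of other types in the results below was not tested.

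Positive cells were compared with negative cells of the same library on UMIs summed per library, with library as a block, in edgeR's quasi-likelihood test. This used 7 libraries with at least 20 positive cells and left out control at week 12 with its 7. Of 10147 genes tested, 1226 were higher in positive cells (12.1%) and 1357 lower (13.4%) at an adjusted p under 0.05. The differences were mostly small, with 111 genes at least 2-fold higher, 152 at least 2-fold lower, and a median log2 fold change of 0.01 over all genes tested. A total of 1111 called genes had the same sign in all 7 libraries.

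Genes of the bone extracellular matrix were higher in positive cells. Of the 18 genes of this list 12 had enough UMIs to be tested, and all 12 passed the test as higher, with a median log2 fold change of 0.35, and 12 of 12 also passed between cells of 15000 to 25000 UMIs, where 9.14% of all 9863 genes tested were higher and 10.7% lower. Col1a1, the main chain of type I collagen, ran from 18067 to 30255 CPM in positive cells (median 25198) and from 13270 to 22225 CPM in negative cells (median 19304), a log2 fold change of 0.38 ± 0.04 (SE) that was positive in 7 of 7 libraries. Col1a2 (0.26 ± 0.04) and Sparc (0.27 ± 0.04), a collagen-binding glycoprotein, moved by less. Spp1, which encodes osteopontin, stood at 1215, 1301, 877 and 1813 CPM in control, zoledronate, CGRP and magnesium at week 4, against 620, 661, 744 and 993 CPM in negative cells. At week 12 Spp1 ran from 262 to 497 CPM in the 3 libraries fitted, against 253 to 376 CPM, and was lower than in negative cells in zoledronate. Its log2 fold change was 0.58 ± 0.12. Tnn, the gene of tenascin-W, a matrix protein of periosteum and forming bone, was higher in 7 of 7 libraries by 1.05 ± 0.15 in log2, and Postn, of the periosteal protein periostin, by 0.31 ± 0.06.

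Of 11 tested transcription factors of the osteoblast path, 5 were higher and 0 lower, with a median of 0.18, and 2 were higher when no scaling factors between sums were used. Dlx5, a homeobox activator of the path, ran from 8.08 to 38.9 CPM in positive and from 4.94 to 24.3 CPM in negative cells and was higher in 7 of 7 libraries, by 0.69 ± 0.06 in log2. Runx2 ran from 9.69 to 34.1 CPM against 15 to 20.7 CPM, with 4 of 7 libraries higher. Its log2 fold change of 0.25 ± 0.09 passed with an adjusted p of 0.042 in edgeR, and did not pass between cells of 15000 to 25000 UMIs (0.26, adjusted p = 0.078). Cbfb, the partner of RUNX proteins, changed by 0.27 ± 0.07.

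Among receptors and hormone response genes, 6 of 17 were higher and 0 lower, with a median of 0.17. Pth1r, the receptor of parathyroid hormone and of PTHrP, led the genes named by the ranking rule. It stood at 12.2, 16.0, 0.891 and 19.8 CPM in positive cells of control, zoledronate, CGRP and magnesium at week 4 and at 1.78, 18.0 and 3.23 CPM in zoledronate, CGRP and magnesium at week 12. Negative cells held 2.75, 3.17, 0.289 and 4.86 CPM at week 4 and 0.815, 1.67 and 3.04 CPM at week 12. Pth1r was higher in every library fitted, as the ranking rule required, by 2.16 ± 0.14 in log2 (edgeR adjusted p = 3.7e-09), though by little in magnesium at week 12. Its level in positive cells rests on 1 UMI in CGRP at week 4. At week 12 it rests on 3, 9 and 2 UMIs in zoledronate, CGRP and magnesium. Itga10 (1.5 ± 0.26) and Itga11 (0.44 ± 0.05), collagen-binding integrin chains, and Fgfr2 (0.36 ± 0.07) were also higher.

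The mineralisation list did not rise. Of its 11 tested genes 1 was higher and 4 lower, with a median of -0.06. The 1 higher gene was Nt5e (0.65 ± 0.13), a surface enzyme that makes adenosine. Enpp1, which makes pyrophosphate, was lower in 6 of 7 libraries (-0.38 ± 0.07), and Anxa2 in 7 of 7 (-0.35 ± 0.03).

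Small leucine-rich proteoglycans and other fibrous matrix genes were higher, with 9 of 14 tested higher, 1 lower, and a median of 0.36. Lum (lumican) stood at 312, 417, 45.4 and 433 CPM at week 4 in the order above, against 173, 130, 21.1 and 189 CPM in negative cells. At week 12 its values of 128, 305 and 9.69 CPM lay beside 140, 164 and 11.5 CPM, so that only CGRP was higher. The log2 fold change of Lum was 1.0 ± 0.15. Aspn (1.36 ± 0.14), Fmod (0.95 ± 0.05), Dcn (0.74 ± 0.13) and Ogn (0.52 ± 0.05) encode further proteoglycans of this family. Thbs2, a matricellular thrombospondin that negative cells also held at 477 to 1847 CPM, was higher in 7 of 7 libraries by 0.99 ± 0.10, while Thbs4 was lower (-0.71 ± 0.09).

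Cartilage matrix genes were in part higher, with 5 of 11 tested higher, 0 lower and a median of 0.42. Acan, the core protein of aggrecan, ran from 17.8 to 249 CPM in positive cells and from 14.8 to 122 CPM in negative cells, and was higher in 7 of 7 libraries by 0.97 ± 0.10 in log2. Comp, a cartilage and tendon matrix protein, ran from 3.23 to 102 CPM against 7.46 to 48.0 CPM, and was higher in 6 of 7 libraries by 1.05 ± 0.10. Of the 4 tested genes of hypertrophic cartilage 2 were higher.

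Of 24 tested WNT signalling genes 10 were higher and 0 lower, with a median of 0.24, and without scaling factors 10 were higher and 2 lower. The secreted inhibitors Frzb (2.35 ± 0.27), Sfrp4 (1.36 ± 0.11), Sfrp2 (1.21 ± 0.25) and Dkk3 (0.83 ± 0.07) were among them. So were the ligands Wnt5b (1.32 ± 0.16), Wnt4 (1.20 ± 0.16) and Wnt10b (1.14 ± 0.16). Frzb stood at no more than 4.01 CPM in any library, while Sfrp4 ran from 6.46 to 39.5 CPM and was higher in 7 of 7. Sfrp2 had 0, 1 and 0 UMIs in positive cells of zoledronate, CGRP and magnesium at week 12. Of 23 BMP pathway genes 8 were higher and 2 lower. The BMP antagonist Nog was higher (0.91 ± 0.11), and the ligand Bmp4 was lower (-1.20 ± 0.17). In the Notch list 4 of 6 were higher, among them the receptor Notch1 (1.74 ± 0.22) and the ligand Jag1 (0.43 ± 0.07).

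Matrix proteases included the largest fold change of the gene lists. Mmp13, a collagenase made by hypertrophic chondrocytes and osteoblasts, stood at 22.8, 47.9, 1.78 and 14.5 CPM in control, zoledronate, CGRP and magnesium at week 4, against 0.980, 0.508, 0.0837 and 1.44 CPM in negative cells. At week 12 it had 2 UMIs in CGRP and 0 in the positive cells of the other libraries. The log2 fold change was 4.74 ± 0.33 (edgeR adjusted p = 1.6e-08). It was found in 29 of 456, 47 of 499, 1 of 53 and 23 of 491 positive cells in the order above, so a minority of cells carried it. Of the 15 tested genes of the list 7 were higher and 2 lower.

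Cell cycle genes had the lowest medians among the gene lists with more than 1 gene tested. All 20 tested genes of the G2M list and 19 of 20 of the S phase list were lower in positive cells, with medians of -1.30 and -0.57, and the G2M median was -1.35 between cells of 15000 to 25000 UMIs. Mki67, a nuclear protein of dividing cells, stood at 61.6, 42.9, 33.0 and 37.4 CPM at week 4, against 140, 82.3, 159 and 94.7 CPM in negative cells, and at 1.78, 10.0 and 27.5 CPM at week 12 against 16.9, 47.7 and 45.7 CPM. Mki67 was lower in 7 of 7 libraries, and its log2 fold change was -1.24 ± 0.11. With every cell thinned to 5000 UMIs, a Mki67 UMI was found in 11% of positive and 26.5% of negative cells of control at week 4, and in 9.22 and 16.9% in zoledronate, 9.43 and 35.5% in CGRP and 8.76 and 19.0% in magnesium. The genes that the ranking rule named as lower included Pttg1 (-1.66 ± 0.08), Ccnb1 (-1.61 ± 0.13), Ccnb2 (-1.55 ± 0.09), Cenpf (-1.57 ± 0.11), Kif20a (-1.52 ± 0.09), Prc1 (-1.51 ± 0.12) and Cep55 (-1.57 ± 0.13), all of mitosis, and Lmnb1 (-1.66 ± 0.14), of the nuclear lamina. Cdkn1a, an inhibitor of cyclin-dependent kinases, was higher in 6 of 7 libraries (0.65 ± 0.08).

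The lower genes outside the cell cycle were led by Esm1, a secreted proteoglycan, and Ccl7, a monocyte chemokine. Esm1 ran from 0 to 10.0 CPM in positive and from 2.48 to 42.4 CPM in negative cells of the libraries fitted, a log2 fold change of -2.19 ± 0.22. Ccl7 stood at 182.5 CPM in positive and 720 CPM in negative cells of magnesium at week 12, where it was highest in both sets, and its log2 fold change was -1.62 ± 0.16. Of 10 tested chemokines and cytokines 5 were lower and 2 higher. Glycolysis genes were lower in 6 of 16 and the cholesterol synthesis genes in 6 of 22, with 0 higher in each. The latter pathway holds Fdps, the enzyme that zoledronate inhibits, at -0.26 ± 0.04, lower in 7 of 7 libraries.

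The ranking rule also named, as higher, Cthrc1 (1.17 ± 0.09), a secreted protein of remodelling tissue, Mmp2 (0.81 ± 0.11), a gelatinase, Ndrg1 (0.92 ± 0.11), Olfml2b (0.95 ± 0.08), Rarres1 (0.95 ± 0.11), C1qtnf6 (0.91 ± 0.08), C1qtnf3 (0.87 ± 0.12) and Podxl2 (0.81 ± 0.09). Each was higher in 7 of 7 libraries, as the rule required. The plot of these ratios by library shows that CGRP and the week 12 libraries scatter more than the 3 large libraries.

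**Figure D3:**
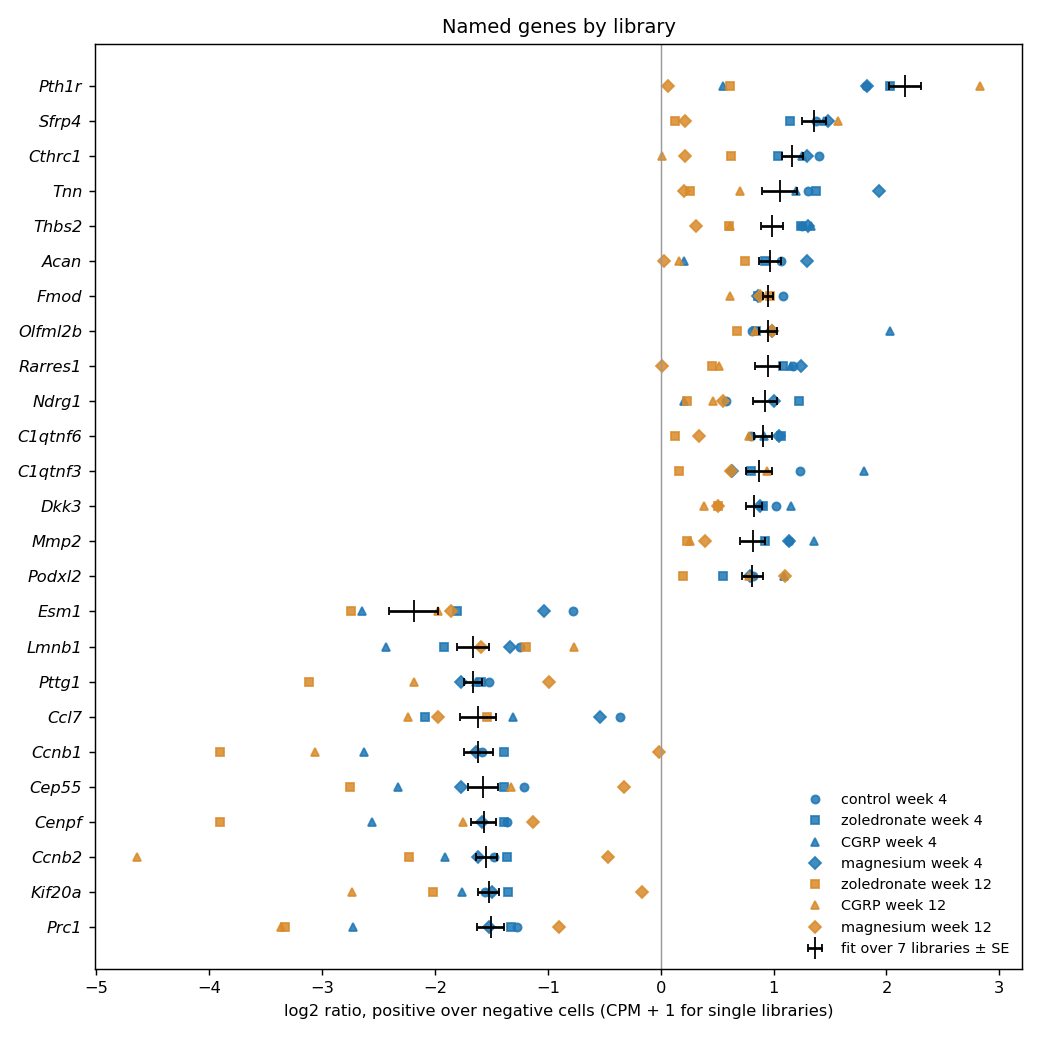
Log2 ratio of CPM in positive to negative cells for the 25 genes named by the ranking rule, with 1 point for each library and the edgeR estimate with its SE. The 15 higher genes lie from 0.81 (Podxl2) to 2.16 (Pth1r) and the 10 lower genes from -2.19 (Esm1) to -1.51 (Prc1) by the estimate.

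Most positive cells were chosen on 3 or 4 Alpl UMIs and held no Ibsp, and these were tested alone against negative cells. Of 10113 genes, 917 were higher (9.07%) and 1120 lower (11.1%). In this subset 9 of 12 bone matrix genes were higher (median 0.26), while Spp1 did not pass (0.25 ± 0.10) and Runx2 did not pass (0.09 ± 0.09). Mmp13 was still higher (2.98 ± 0.37), and all 20 G2M genes were still lower (median -1.19). All 25 genes named by the ranking rule kept their sign and passed. This is no separate check, since the genes were named from sums that include these cells, against the same negative cells.

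Along the Alpl count itself, in cells without Ibsp, levels differed by small steps that did not all go the same way. In control at week 4, Mki67 stood at 140, 108, 93.4, 66.7, 70.8 and 35.2 CPM in cells with 0, 1, 2, 3, 4 and 5 to 9 Alpl UMIs. Pth1r stood at 2.75, 4.35, 4.61, 8.69, 10.3 and 14.1 CPM and Lum at 173, 191, 197, 227, 226 and 360 CPM in the same cells. Acan in magnesium at week 4 stood at 101, 109, 138, 178, 232 and 237 CPM over the same steps. Spp1 in control moved from 620 to 1011 CPM over these Alpl steps and stood at 3884 CPM in Ibsp cells. In the 3 control cells with at least 10 Alpl UMIs and 0 Ibsp it stood at 378 CPM. These examples were chosen after their values were seen.

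**Figure D4:**
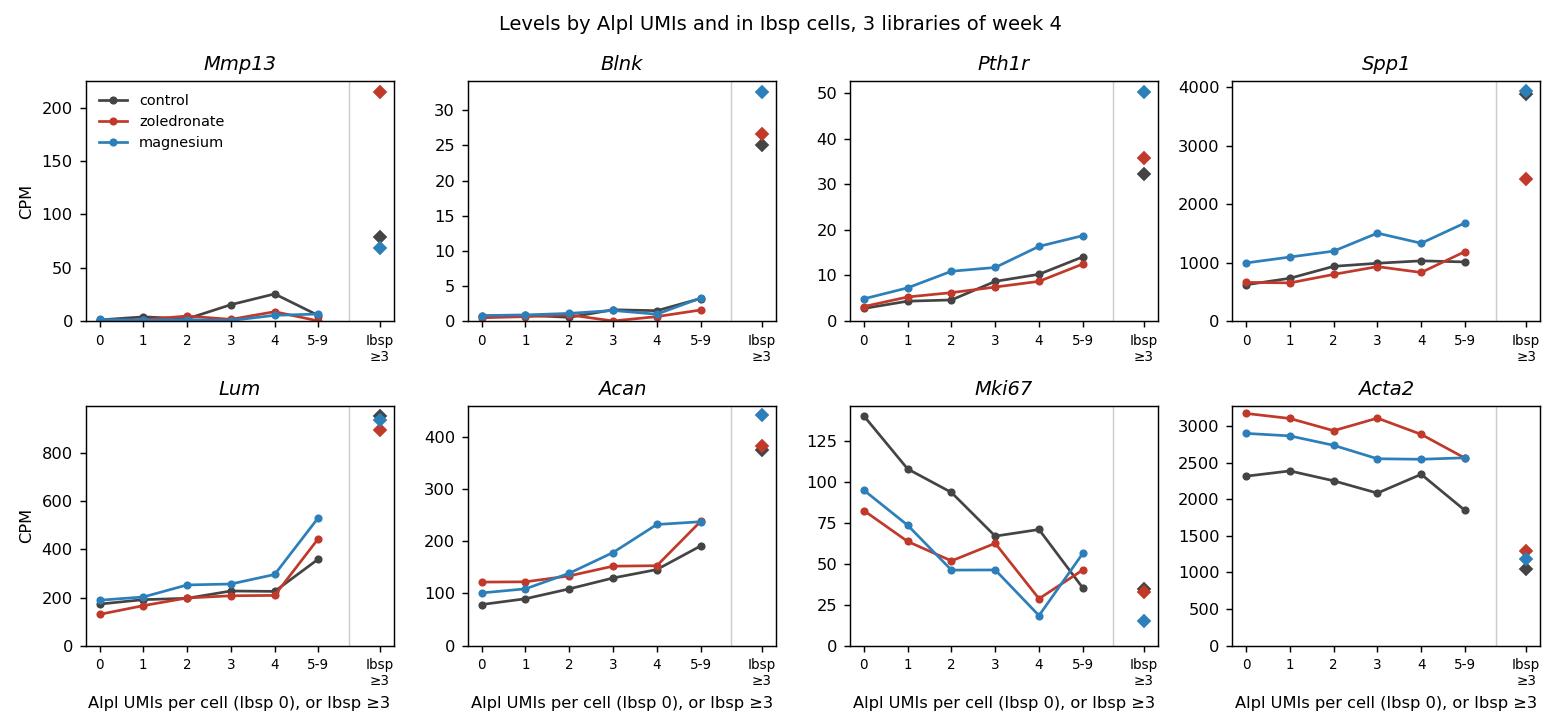
CPM of 8 genes in control, zoledronate and magnesium at week 4 in cells with 0, 1, 2, 3, 4 and 5 to 9 Alpl UMIs, all with 0 Ibsp UMIs, and in cells with at least 3 Ibsp UMIs. Pth1r, Lum and Acan are higher at 5 to 9 Alpl UMIs than at 0 in each library and Mki67 is lower. Among the cells drawn, Spp1 and Blnk are highest in the Ibsp cells and Acta2 is lowest there. Cells with at least 10 Alpl UMIs and 0 Ibsp (3, 6 and 5 in the order above) are not drawn. Blnk stood at 0, 13.2 and 44.1 CPM in them and Acta2 at 407, 1824 and 1227 CPM.

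The Ibsp cells stood apart from the other positive cells. Cells with at least 3 Ibsp UMIs (43, 100 and 73 in control, zoledronate and magnesium at week 4) were compared with cells with at least 3 Alpl UMIs and 0 Ibsp (393, 346 and 374). In edgeR with library as a block, 567 of 8414 genes were higher in the Ibsp cells (6.74%) and 596 lower (7.08%). Blnk, an adaptor protein best known from B cells, stood at 25, 26.7 and 32.5 CPM in the Ibsp cells against 1.82, 0.646 and 2.22 CPM, a log2 fold change of 4.19 ± 0.27. It was found in 11 of 43, 26 of 100 and 22 of 73 Ibsp cells. Lcp2, another adaptor of immune cell signalling, stood at 10.7, 19.4 and 27.4 CPM against 0.966, 0.646 and 2.59 CPM (3.8 ± 0.31). Ptprc, Tyrobp, Aif1 and Csf1r, the defining leukocyte and macrophage markers, had 0 UMIs in the Ibsp cells of all 3 libraries. Cd14 had 17, 40 and 35 UMIs there, or 20.3, 19.4 and 25.9 CPM against 13.6, 13.2 and 16.8 CPM in the Alpl-only cells.

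Mmp13 in the Ibsp cells reached 78.6, 214 and 68.1 CPM, against 17.6, 2.71 and 2.59 CPM in the Alpl-only cells (4.08 ± 0.39). It was found in 8 of 43, 32 of 100 and 12 of 73 Ibsp cells, and the cell with most held 39 of 66, 76 of 442 and 40 of 92 UMIs, so single cells carry much of the control and magnesium values. Without those cells, the levels were 32.9, 179 and 39.0 CPM. Alpl-only cells with at least 10 Alpl UMIs, which numbered 3, 6 and 5, held Mmp13 at 252, 0 and 0 CPM. Mmp13 and Blnk occurred in the same cell in 3, 14 and 7 Ibsp cells.

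Matrix and early osteoblast genes were higher again in the Ibsp cells, with 8 of 13 bone matrix genes, 3 of 6 transcription factors and 8 of 13 proteases higher. Spp1 stood at 3884, 2436 and 3941 CPM against 996, 956 and 1484 CPM (1.59 ± 0.07) in the sums of these libraries. Tnn (1.28 ± 0.05), Lum (1.79 ± 0.06), Aspn (1.5 ± 0.05) and Acan (1.22 ± 0.06) were higher, as was Pth1r at 32.2, 35.9 and 50.3 CPM against 10.2, 9.17 and 14.1 CPM (1.86 ± 0.15). Runx2 (0.78 ± 0.16), Cbfb (1.0 ± 0.08) and Dlx5 (0.60 ± 0.12) were the transcription factors that passed. Mepe, a late osteoblast and osteocyte protein, passed on 2, 9 and 3 UMIs (4.90 ± 0.81), and Sp7 had 0, 1 and 4 UMIs. Other leading genes were Apln (3.41 ± 0.40), a peptide hormone, Entpd3 (2.67 ± 0.19), an ectonucleotidase, Crispld2 (2.24 ± 0.14), Anpep (2.00 ± 0.14), an aminopeptidase, and Rgs3 (1.95 ± 0.08), a regulator of G protein signalling. Fam167a, Cyp4b1, Plac8, Htra3, Car8, Lgals2 and Ndrg1 completed the 15 leaders, at log2 fold changes of 1.89 (Ndrg1) to 3.20 (Fam167a).

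Contractile genes were lower in the Ibsp cells. Of 11 tested, 10 were lower, with a median of -0.70, while against negative cells the same list in all positive cells had 2 higher, 1 lower and a median of -0.02. Acta2, smooth muscle actin, stood at 1046, 1296 and 1178 CPM in the Ibsp cells, 2087, 2945 and 2534 CPM in the Alpl-only cells and 2314, 3171 and 2899 CPM in negative cells. The log2 fold change of Acta2 between the Ibsp and the Alpl-only cells was -1.08 ± 0.05. The actin genes Acta1, Acta2 and Actg2 are near-identical, and the treatment of reads shared among them was not given in the sources used here. Igf1, the growth factor, fell furthest, at 8.34, 1.46 and 2.96 CPM against 33.8, 52.2 and 12.3 CPM (-3.37 ± 0.34). With it, 4 of 9 IGF pathway genes were lower and 1 higher, among the lower ones Igfbp3 (-1.78 ± 0.12). Rspo1, an enhancer of WNT signalling, was lower at 9.53, 6.79 and 4.44 CPM against 52.7, 42.3 and 20.6 CPM (-2.48 ± 0.20). Scx, a tendon transcription factor (-1.21 ± 0.08), Sox9, the cartilage transcription factor (-0.42 ± 0.10), and Comp (-0.41 ± 0.13) were lower as well. Among the genes ranked after Igf1 by fold change, Anxa3, Plpp3, Lce1m, Acta1, Nkain4, Wfdc1, Dmrt2 and Gjb2 stood at -2.89 (Anxa3) to -2.06 (Gjb2) in log2. All of these fell further than Scx, Sox9 and Comp. Of the G2M genes 10 of 20 and of the S phase genes 12 of 20 were lower than in the Alpl-only cells, with 0 higher.

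**Figure D5:**
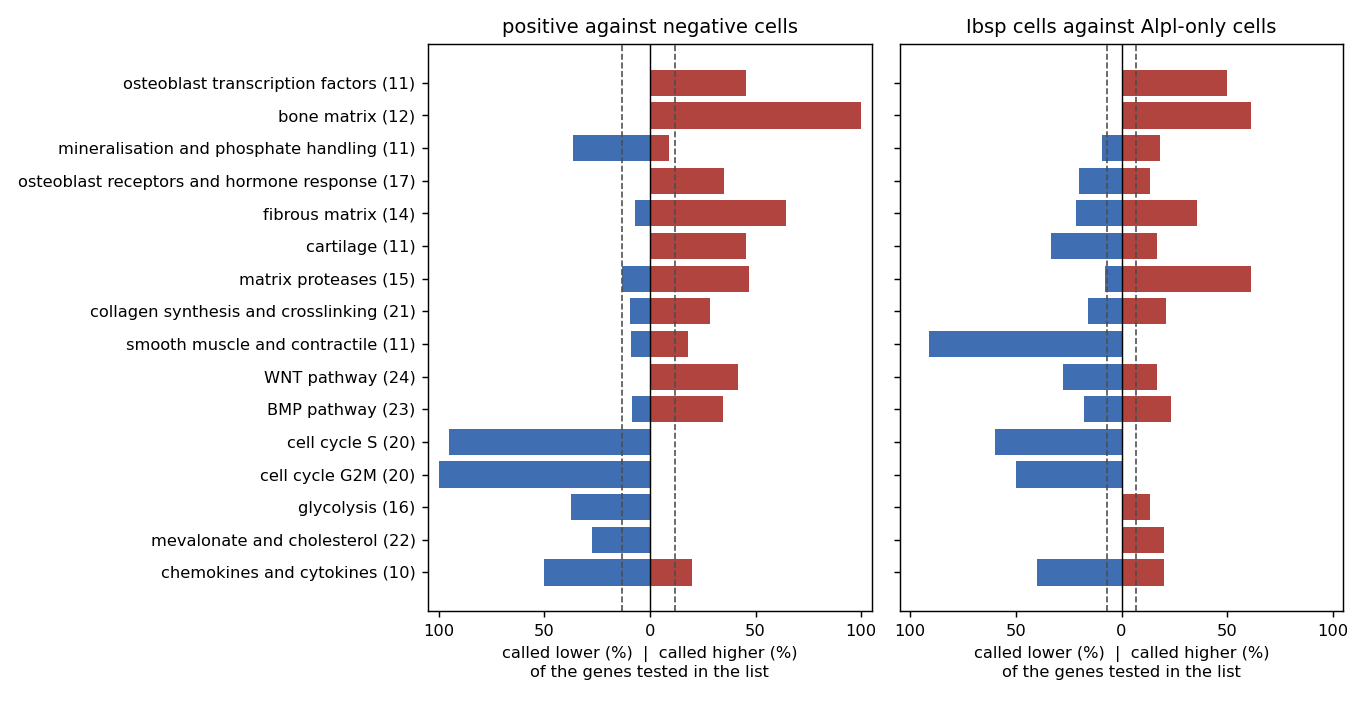
Percentage of the tested genes of each gene list that passed edgeR's test as higher (right) or lower (left), for positive against negative cells and for Ibsp cells against Alpl-only cells. Dashed lines give the percentage over all genes tested, and the number beside each list is its count of tested genes in the comparison of positive with negative cells.

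Ibsp cells without any Alpl were few, with 8, 7 and 5 cells in control, zoledronate and magnesium at week 4. Spp1 stood at 8292, 3115 and 3083 CPM in them, and Blnk had 0 UMIs in all 3 libraries.

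At week 12 the positive cells differed from negative cells in fewer genes. A fit on zoledronate, CGRP and magnesium at week 12, with 92, 31 and 27 positive cells, called 65 of 10223 genes higher (0.636%) and 168 lower (1.64%). The 4 week 4 libraries alone gave 1396 higher (13.7%) and 1523 lower (14.9%) of 10206, from 1499 positive cells, and whether the weeks differ was not tested. Of the 25 genes named by the ranking rule 17 also passed at week 12. All had the same sign, which the rule had already required in each of these libraries. Pth1r, on 3, 9 and 2 UMIs in positive cells, and Fmod were among the higher genes. Top2a (-2.29 ± 0.39), an enzyme of chromosome separation, was among the lower ones. The leading higher gene, Tnmd, of the tendon protein tenomodulin, rests on few cells: in magnesium it had 513 UMIs in 7 of 27 positive cells, 255 of them in 1 cell, and without that cell stood at 427 CPM against 49.6 CPM in negative cells. In zoledronate Tnmd stood at 8.31 against 6.23 CPM and in CGRP at 6.01 against 36.8 CPM.

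Treatments were compared within the positive cells as ratios of CPM plus 1, among genes with a mean of at least 50 CPM in the pair. At week 4, positive cells of zoledronate and control differed by at least 1.5-fold in few genes, with 20 of 2346 higher (0.853%) and 12 lower (0.512%). Magnesium and zoledronate differed in 10 of 2361 genes higher (0.424%) and 1 lower (0.0424%), or in 11 and 3 when scaling factors were applied. CGRP and zoledronate differed in 53 of 2320 higher (2.28%) and 117 lower (5.04%), from 53 cells. Over the same genes at week 4, negative cells had 35 higher and 11 lower for zoledronate against control. They had 11 and 3 for magnesium against zoledronate, and 54 and 136 for CGRP against zoledronate. For CGRP, 24 higher and 76 lower genes were shared by both sets. At week 12 the counts were larger and rest on 7 to 92 cells. Zoledronate against control had 218 of 2341 higher (9.31%) and 331 lower (14.1%), and with scaling factors this split turned to 350 and 198. CGRP against zoledronate had 130 of 2253 higher (5.77%) and 259 lower (11.5%), and magnesium against zoledronate 210 of 2350 higher (8.94%) and 152 lower (6.47%). Negative cells at week 12 had 161 and 200, 76 and 134, and 128 and 116 in the same order. Whether positive and negative cells differ in these counts was not tested. The CGRP and magnesium comparisons share the zoledronate library.

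Few genes passed 1.5-fold in the same direction at both weeks. For zoledronate against control these were 2 higher and 3 lower of 2118 genes measured at both weeks. Between zoledronate and control, Tnfaip6, a hyaluronan-binding protein, stood at 108 against 44.3 CPM (week 4) and 68.9 against 37.4 (week 12), and Cnn1, a contractile protein, at 123 against 64.0 CPM and 616 against 367 CPM. In negative cells the log2 ratios of Tnfaip6 were 1.03 and 0.28 and those of Cnn1 1.40 and 0.42, in the same direction. Col14a1 (38.1 against 66.3 and 37.4 against 74.9 CPM), Gsta1 (59.9 against 103 and 45.7 against 89.9 CPM) and Penk (145 against 220 and 33.8 against 135 CPM) were lower in zoledronate, as in negative cells. The control values at week 12 come from 5 to 49 UMIs each in 7 cells.

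Between CGRP and zoledronate, 10 of 2111 genes measured at both weeks were higher at both and 31 were lower. Akap12, a scaffold protein of protein kinase A, had 290 CPM in CGRP and 63.9 in zoledronate at week 4, and 387 and 41.0 CPM at week 12, with log2 ratios of 2.17 and 3.21 in positive and 0.80 and 0.88 in negative cells. At week 4, 1 of the 53 CGRP cells held 100 of its 326 UMIs, and without that cell its level was 206 CPM. Col14a1 and Fos were the next genes, at 90.9 against 38.1 and 205 against 80.5 CPM at week 4. Igfbp3 (60.6 against 186 CPM), Cilp2 (37.4 against 109 CPM) and Rasl11b (58.8 against 133 CPM) are the week 4 values of the 3 lower genes that ranked first by the smaller of their log2 ratios in the 2 weeks, and negative cells had ratios of the same sign in both weeks. At week 4 alone other genes lay further apart. Dcn, named after its values were seen, stood at 13.4 against 273 CPM, a log2 ratio of -4.25, and at -0.76 at week 12. Its CGRP value at week 4 rests on 15 UMIs. In negative cells the log2 ratios of Dcn were -3.47 at week 4 and -1.004 at week 12, so this difference was not particular to positive cells.

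Between magnesium and zoledronate, Fos, Btg2 and Emb were higher and Wfdc1 was lower at both weeks. No other gene of the 2171 measured at both weeks passed. Fos, an immediate early gene, had 179 CPM in magnesium and 80.5 in zoledronate at week 4, and 98.5 and 38.0 CPM at week 12. Btg2 stood at 80.7 against 48.0 and 128 against 57.6 CPM, Emb at 76.4 against 47.5 and 199 against 62.3 CPM, and Wfdc1 at 182 against 287 and 544 against 1433 CPM. Negative cells had log2 ratios of the same sign for all 4 genes in both weeks, of 1.10 and 1.19 for Fos against 1.14 and 1.35 in positive cells. Spp1 in positive cells, at 1301 CPM in zoledronate and 1813 CPM in magnesium at week 4, lay under this limit.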

How the data were processed

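Each library came as 1 table deposited by the authors, with raw UMI counts, all whole numbers, for genes in rows and cell barcodes in columns. The aligner STAR and the genome build Rnor_6.0 are named per the submitters' processing notes, and the STAR version, annotation, cell calling and filters were not given in the sources used here. A gene not listed in a table was counted as 0. The positive cells and the gene lists were chosen with earlier results of these data known, so a list is described by its counts and median beside all genes tested.

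For each library, UMIs were summed over positive and over negative cells. Genes were tested with edgeR 4.0.16 in R 4.3.3 (quasi-likelihood fit, TMM factors, edgeR's default filter on low counts, library as a block, Benjamini-Hochberg adjustment over all genes, threshold 0.05), without Alpl and Ibsp. Libraries needed at least 20 positive cells. Both sums of a library come from the same cell suspension, which is why library is the block in the main design. SE is the log2 fold change divided by the square root of its F statistic. The replicates are the 7 libraries, which differ in treatment and week, so a p-value measures how steadily positive and negative cells differ over them. Named genes passed the test with the same sign in all 7 libraries and between cells of 15000 to 25000 UMIs, at 10 CPM or more in the higher set, and the 15 highest and 10 lowest fold changes were taken. Between treatments, a gene needed 50 CPM on average and 1.5-fold in the same direction at both weeks, and the leading 3 per direction are given.

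Ratios used a pseudocount of 1 CPM, which shrinks ratios of genes near 1 CPM. A sign-flip test over libraries of Ibsp in Alpl-chosen cells, and the reverse, had been planned; it is not given, since both genes chose the cells. Promoters came from RefSeq (GRCr8), another assembly than the files use. The test was tried on simulated counts for 10075 genes with 200 changed: it recovered 74.2% of those changed 1.5-fold, 92.5% at 2-fold and 100% at 4-fold, with 0 wrong signs, and called 0.101% of unchanged genes. The simulation gave all genes the same spread (dispersion) and each changed gene the same fold in every library. In the data the log2 ratio of Tnn ran from 0.21 to 1.94 over the libraries, so these rates may not hold for the data. Alternatives were DESeq2 1.42.0, no scaling factors, no filter, no replicate block, cells thinned to 5000 UMIs, a UMI window, at least 5 UMIs of Alpl or Ibsp, negatives of any depth, each week alone, and leaving out each library. A few genes of the lists are not reported here by name.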

Additional observations from a re-analysis of the deposited data

Results flagged for a closer look

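Among 59 genes of the comparison of positive with negative cells, 8 had a library whose log2 ratio stood apart from the other 6 by Dixon's criterion, where chance gives about 1 in 20. In CGRP at week 4, Olfml2b stood at 2.03 against 0.68 to 0.99 elsewhere and Ogn at 0.81 against 0.27 to 0.49. In CGRP at week 12, Ccnb2 stood at -4.64 against -2.23 to -0.47, with 0 UMIs in the positive cells. In magnesium at week 12, Comp stood at -1.0 against 0.42 to 1.42, Nt5e at -1.0 against 0.06 to 0.85 and Wnt10b at -0.44 against 0.60 to 0.86. In zoledronate at week 12, Thbs4 stood at 0.25 against -1.05 to -0.65 and Cdkn1a at -0.16 against 0.52 to 0.99. All 8 lie in libraries with 27 to 92 positive cells.

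The weeks lay on opposite sides of 0 for Phospho1, with mean log2 ratios of 0.38 at week 4 and -0.50 at week 12, and for Sfrp2, with 1.40 and -0.54. This difference was not tested, and the positive cells of week 12 held 0 to 2 UMIs of Phospho1 in a library. Of Sfrp2 they held 0 UMIs in zoledronate, 1 in CGRP and 0 in magnesium. Outside the cells analysed, 8 barcodes of magnesium at week 4 with under 5000 UMIs held at least 3 UMIs of Alpl or Ibsp.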

How the results depend on the processing

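The split of higher and lower genes turned for zoledronate against control at week 12, given below. The mean log2 ratio of Ibsp in Alpl-chosen cells was 2.47 between cells of 15000 to 25000 UMIs, 2.53 with cells thinned to 5000 UMIs, 4.31 (6 libraries) with at least 5 Alpl UMIs, 2.89 with a pseudocount of 0.1 CPM, and 2.13 to 2.91 with 1 library left out. For Alpl in Ibsp-chosen cells, leaving out 1 library gave 0.54 to 2.13. Beside the 1226 higher and 1357 lower genes of the main fit, DESeq2 called 745 and 891, thinning 544 and 740, and week 12 alone 65 and 168. Of the main calls, DESeq2 shared 707 higher and 891 lower genes, thinning 499 and 681, and week 12 alone 47 and 148. Without the replicate block (no library term), 1 and 0 genes passed in edgeR, with 1310 at an unadjusted p under 0.05. Leaving out 1 library gave 721 (magnesium at week 4) to 1439 higher genes and 844 (control at week 4) to 1408 lower genes, with 737 higher without control and 774 without zoledronate at week 4. Without scaling factors the split was 1003 and 1642. All 25 genes named by the ranking rule kept sign and call under the planned settings other than no replicate block, where all 25 lost the call. Their sign in each of the 7 libraries and in the UMI window had been required by the rule, so a kept sign adds nothing there. Of the settings added after seeing the data, week 12 alone kept the call of 17. The cells between the 2 sets, set against negative cells, kept 24 (Ndrg1, at a log2 fold change of 0.05 with an adjusted p of 0.406 in edgeR, did not pass), with 1837 genes higher and 1925 lower in all. For Ibsp against Alpl-only cells, leaving out 1 library gave 429 to 572 higher and 414 to 561 lower genes. With at least 5 UMIs of Alpl or Ibsp the shares were 1.53, 1.95, 0.0993 and 1.82% at week 4 (control, zoledronate, CGRP, magnesium) and 0, 0.0216, 0.0289 and 0.0125% at week 12, and thinned to 5000 UMIs 0.573, 0.745, 0.0497 and 0.853%, and 0, 0.0216, 0.0386 and 0%. Between treatments, zoledronate against control at week 12 had 350 higher and 198 lower genes with scaling factors and 364 and 701 after thinning. After thinning, CGRP against zoledronate had 142 higher genes at week 4 and 271 at week 12, and magnesium against zoledronate 16 higher and 3 lower at week 4 and 396 and 283 at week 12, with 3 lower at week 4 also with scaling factors. Week 12 sums of 7 to 92 cells limit what can be seen there.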
